A study of Mus musculus with 25 samples.

Results

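Lung and skin fibroblasts of control mice were compared through the genes that 2 separately normalised RNA-seq tables have in common, 1 table for each organ. The lung table listed 11867 genes and that of the skin 12661, and 10123 genes stood in both, out of 14405 in either. Of the 25 bulk libraries of the series, 3 lung and 3 skin control fibroblast libraries entered the comparison (lung replicates 1, 2 and 3, and skin replicates 3, 4 and 5). All mice were C57BL/6 and carried Rosa26_DTR, a diphtheria toxin receptor allele switched on by Cre, and all received diphtheria toxin by intraperitoneal injection at 10 ug/kg for 7 days. Control mice were Mrp8_WT; Rosa26_DTR, without Cre, so toxin exposure was shared with the depleted mice. Depleted mice were Mrp8_CRE; Rosa26_DTR, in which the Mrp8 promoter, active in neutrophils, drives Cre. Their fibroblasts (3 lung and 3 skin libraries) repeated the organ comparison, and their macrophages (3 lung and 4 skin libraries) gave the same organ difference in another cell type. Lung fibroblasts were sorted as CD45- CD31- EPCAM- PDGFRA+ cells, and skin fibroblasts by the same gate plus CD90.1+. No source used here gives the ages of the mice, and nothing states whether replicates came from separate animals. Organ, table, depth and the CD90.1 gate coincide and cannot be told apart, and no test was made across the tables.

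Fibroblasts build and maintain the extracellular matrix, and they keep a memory of their place in the body through transcription factors set in development. In the lung, PDGFRA+ fibroblasts of the alveolar wall support the epithelium with growth factors, lipids and retinoids around a sparse, elastic matrix. In the dermis, fibroblasts lay down a dense network of type I and III collagen with proteoglycans and matricellular proteins, and they signal to hair follicles and epidermis.

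Promoters of 4 genes that separated the organs are shown because each is a member the results turn on and each holds the letters TATAAA, the core of the TATA box that positions the transcription machinery at some tightly regulated genes. The windows run from 250 bases before to 50 bases after the RefSeq start, 5′ to 3′ on the coding strand, build GRCm38.p6, with TATAAA in capitals. Inmt lies at chr6:55174941-55175240 on the minus strand, with TATAAA 80 and 69 bases before the start. Vegfd lies at chrX:164373272-164373571 on the plus strand, with TATAAA 73 bases before the start. Tnc lies at chr4:64046966-64047265 on the minus strand, with TATAAA 126 bases before the start. Aspn lies at chr13:49544193-49544492 on the plus strand, with TATAAA 207 bases before the start. Whether any of these matches works as a TATA box at its distance from the start was not tested.
Inmt: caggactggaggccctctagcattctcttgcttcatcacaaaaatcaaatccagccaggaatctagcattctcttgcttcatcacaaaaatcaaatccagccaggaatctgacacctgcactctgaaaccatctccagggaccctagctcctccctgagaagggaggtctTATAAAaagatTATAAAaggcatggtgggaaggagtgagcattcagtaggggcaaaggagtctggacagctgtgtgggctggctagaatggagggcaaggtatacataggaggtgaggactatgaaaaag
Vegfd: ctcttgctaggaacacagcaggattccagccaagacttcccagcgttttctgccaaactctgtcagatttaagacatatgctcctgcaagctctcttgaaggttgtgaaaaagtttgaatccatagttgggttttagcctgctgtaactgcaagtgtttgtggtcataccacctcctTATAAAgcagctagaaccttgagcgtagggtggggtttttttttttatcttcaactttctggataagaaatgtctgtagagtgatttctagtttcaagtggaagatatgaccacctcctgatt
Tnc: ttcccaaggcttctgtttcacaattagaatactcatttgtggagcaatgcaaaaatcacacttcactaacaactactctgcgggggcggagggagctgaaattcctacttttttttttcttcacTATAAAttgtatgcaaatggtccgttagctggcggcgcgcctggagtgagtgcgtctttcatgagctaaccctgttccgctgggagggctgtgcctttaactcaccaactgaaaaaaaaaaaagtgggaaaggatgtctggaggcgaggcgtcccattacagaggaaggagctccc
Aspn: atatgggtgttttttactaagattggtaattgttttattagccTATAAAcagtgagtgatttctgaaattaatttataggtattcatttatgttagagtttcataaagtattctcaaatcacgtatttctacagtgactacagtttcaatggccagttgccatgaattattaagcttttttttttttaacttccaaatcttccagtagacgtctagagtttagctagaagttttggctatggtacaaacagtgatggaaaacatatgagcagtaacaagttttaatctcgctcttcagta

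Inmt and Vegfd ranked higher in lung fibroblasts, and Tnc and Aspn in skin fibroblasts, with values given below. TATAAA was searched on the coding strand alone. It was present in 351 of the 7903 windows matched to shared genes (4.44%), in 20 of 329 windows of genes ranking higher in lung (6.08%) and in 22 of 265 of those ranking higher in skin (8.30%). Among well-expressed genes (defined in the next paragraph) the share was 5.77%. Median GC content was 60.7% in the lung set, 61.7% in the skin set and 61.0% over all matched windows. The displayed promoters, at 31.0% to 47.7% GC, were therefore poorer in GC than the median of their sets, and they were chosen for holding the motif.

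Fibroblasts of the organs differed in rank for part of their well-expressed genes, among them alveolar, matrix and signalling genes. Each shared gene was ranked within its library and given a percentile, 100 for the highest, and the rank gap is the lung median percentile minus the skin median percentile. A gene was called when its 3 lung and 3 skin percentiles did not overlap, the gap was at least 25 points and the higher median reached 75; the 3290 genes that reached 75 are referred to as well-expressed. By that rule 422 genes ranked higher in lung (4.17% of the shared genes, 12.8% of the well-expressed) and 350 ranked higher in skin (3.46% and 10.6%). Without the limits on gap and level, 1964 genes (19.4%) did not overlap with lung higher and 1699 (16.8%) with skin higher. These shares are the background for every count of list members in control fibroblasts given below. Just inside the lung limit stood Pkn2 with a gap of 25.05 points, and just outside it Tm2d3, which missed the limit by less than a hundredth of a point. On the skin side Zhx1 (-25.09) stood just inside and Klf4 (-24.86) just outside.

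Spearman correlations over the 10123 genes, which are not independent replicates, were 0.793 to 0.796 between lung libraries, 0.776 to 0.910 between skin libraries and 0.582 to 0.622 across organs. Among skin libraries, replicates 4 and 5 were the closest pair (0.910) and replicate 3 stood further off (0.776 to 0.783). The 100 highest-ranked genes of each organ overlapped by 46 genes, and the lung top 100 had a median percentile of 98.8 in skin. The highest-ranked genes were mt-Atp6, Gsn, Malat1, Gpx3 and Inmt in lung and Col1a1, Dcn, Col3a1, Col1a2 and Sparc in skin; ranks are not corrected for gene length. The lung leaders were thus a mitochondrial transcript, a nuclear RNA, an actin-severing protein (Gsn), a glutathione peroxidase (Gpx3) and a methyltransferase (Inmt), whereas each of the skin leaders encodes a matrix protein.

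**Figure D1:**
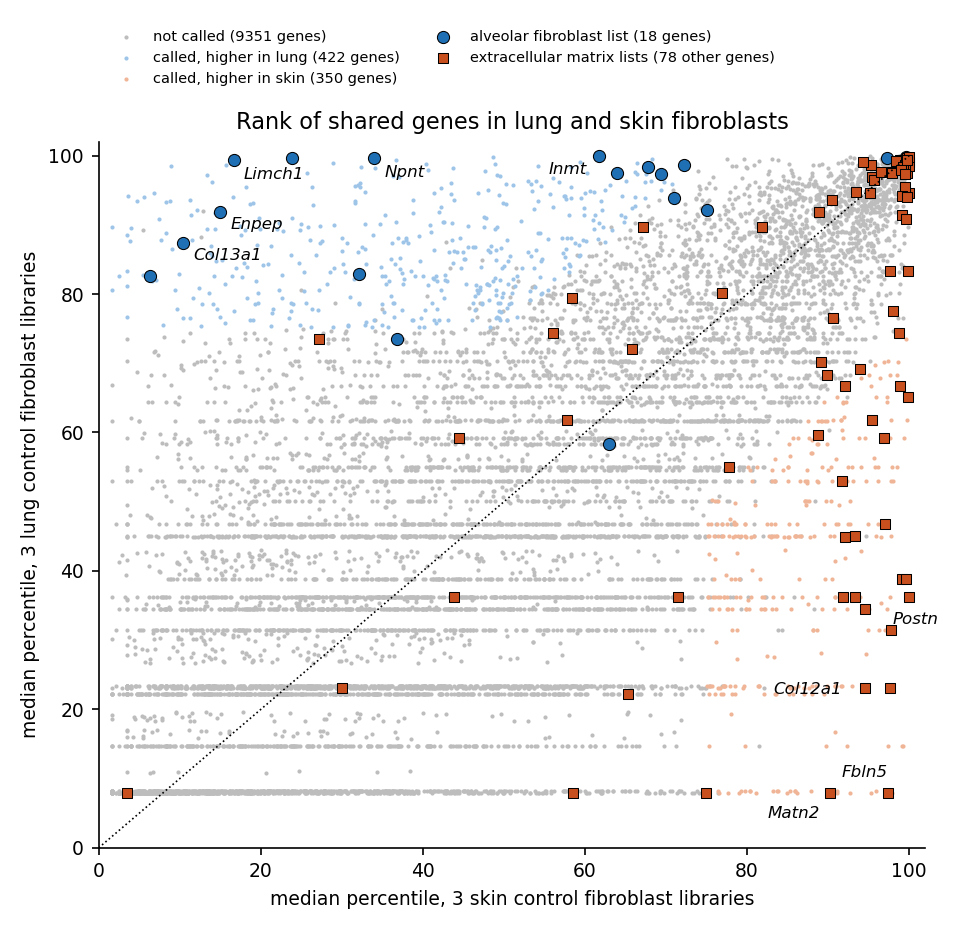
Median percentile of each shared gene in the 3 skin (x axis) and 3 lung (y axis) control fibroblast libraries, 100 being the highest rank; the dotted line marks equal rank. Alveolar fibroblast genes (circles) lie mainly at or above the line. Squares mark the other shared genes of the matrix lists, called or not. Of the 79 shared matrix genes, the 20 called higher in skin lie towards the lower right. Over all shared genes, 422 were called higher in lung and 350 in skin.

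Depth limits the lung side. Control lung fibroblast libraries held 144442 to 247341 estimated reads and control skin fibroblast libraries 14097853 to 20299735. In lung, 12.7% to 19.2% of the genes of the lung table were listed at 0, and among shared genes 1 at percentile 75 rested on 8.5 to 15 reads, against 964 to 1390 reads in skin. Levels are given in rpm, where 1 rpm is 0.0001% of the estimated reads of the shared genes, and 3 reads correspond to 12.7 to 21.8 rpm in lung and 0.155 to 0.223 rpm in skin. Of the 350 skin calls, 165 had under 10 reads over all 3 lung libraries, and 8 had none. These limits cover counting error alone.

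The fibroblast label was checked against marker genes. The pan-fibroblast list made 0.561% to 0.665% of all estimated reads in lung control fibroblasts against 0.0184% to 0.0222% in lung macrophages of depleted mice, and 9.08% to 11.8% in skin control fibroblasts against 0.0338% to 0.130% in skin macrophages. The leukocyte list made 0.0408% to 0.0885% in lung and 0.00828% to 0.0259% in skin fibroblasts, against 10.7% to 21.1% in the macrophages of both organs. Pdgfra, used for sorting and so no finding, lay at percentiles 98.4, 98.4 and 99.1 in lung and 97.3, 96.5 and 96.8 in skin. Epcam, a gene of the negative gate, had 0 reads in the 3 lung control fibroblast libraries. In skin, where the libraries were far deeper, none of the 5 gate genes, Epcam among them, was at 0 in all 3 control fibroblast libraries. Absence of Epcam was thus seen in lung alone. Because these are bulk samples, fewer cells of a type and less RNA per cell cannot be told apart.

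Genes known from alveolar fibroblasts ranked higher in the lung, and none of them ranked higher in skin by the call rule. Of 20 listed genes, 18 were in both tables and 16 were well-expressed, and 12 were called higher in lung (Npnt, Inmt, Itga8, Limch1, Fgfr4, Vegfd, Bmp3, Col13a1, Fmo2, Spon1, Enpep and Mamdc2). Percentiles did not overlap, with lung higher, for 17 of the 18, and the median gap of the list was 35.1 points against 0.064 over all shared genes. Between macrophages the median gap of the list was 8.89 points. For the 12 called genes the median gap was 58.2 points in fibroblasts, which the call rule sets in part, and 15.5 between macrophages. A macrophage gap of at least 25 points in the same direction was found for 4 of the 12. The list, with 20 genes in the lung table and 18 in that of the skin, took 2.98% to 4.45% of estimated reads in lung and 0.228% to 0.294% in skin. Ces1d and Slc7a10 stood in the lung table alone.

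Inmt, which encodes a methyltransferase of indoles and small amines (chromosome 6, 55170626 to 55175043, minus strand, mm10), took more lung reads than any other member, without correction for length. Its level was 26342, 27311 and 13604 rpm in the 3 lung libraries and 42.0, 48.9 and 34.6 rpm in the 3 skin libraries. The groups were far apart, and the ratio of medians was 628. Because Inmt also sat above the middle of the skin ranking, its gap was only 38.3 points. In the depleted mice the gap was 18.0 points, below the limit for a call, and between macrophages it was 91.2 points.

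Npnt encodes nephronectin, an integrin ligand of basement membranes (chromosome 3, 132881745 to 132950291). It was at 2007, 1520 and 2192 rpm in lung and 14.8, 18.3 and 9.18 rpm in skin, a ratio of medians of 136, and the percentiles were 99.6, 99.5 and 99.6 against 36.9, 34 and 21.8. All lung values lay above all skin values for Npnt. Itga8, the integrin chain that binds nephronectin, ranked at 98.6, 98.1 and 99.3 in lung and at 72.2, 72.0 and 72.9 in skin. Ligand and receptor chain thus both ranked near the top in lung, while in skin the ligand lay below the middle of the ranking.

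Fmo2, a flavin monooxygenase that oxidises drugs and other foreign compounds, was at 2742, 2562 and 3335 rpm in lung and 1.18, 11.7 and 51.2 rpm in skin. The skin libraries disagreed among themselves, but the highest of them was far below the lowest lung library. Limch1, an actin-associated regulator of non-muscle myosin, was at 1337, 1292 and 1613 rpm in lung and 0.0743, 7.66 and 7.33 rpm in skin, with a gap of 82.7 points. Col13a1, a transmembrane collagen, ranked at 87.3, 76.3 and 94.1 in lung and 3.44, 10.4 and 19.3 in skin. Among these genes Col13a1 rested on the fewest lung reads, 19, 9 and 62.

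Several called members encode secreted factors or their receptors. Vegfd, a growth factor for lymphatic and blood vessels, ranked at 97.9, 96.8 and 97.3 in lung and 81.0, 64.3 and 69.4 in skin, a gap of 27.9 points. Bmp3, an antagonist within the BMP family, ranked at 85.6, 78.8 and 82.9 against 6.90, 32.1 and 32.5. Fgfr4, a receptor of the FGF family, ranked at 82.7, 70.3 and 86.9 against 42.7, 6.37 and 1.67. The skin spread of Fgfr4 was wide, and the ranges still did not overlap. Spon1, a secreted matrix protein, had a gap of 30.6 points, Mamdc2, a proteoglycan, one of 33.5, and Enpep, the aminopeptidase that cleaves angiotensin II, one of 76.8.

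The members that were not called were Mfap4, Adh1, Wnt2, Plin2, Macf1 and Gdf10. Mfap4, a microfibril-associated protein, had a gap of 0.18 points and Adh1, an alcohol dehydrogenase that also oxidises retinol, one of 2.40, so both ranked about equally high in the organs. Wnt2, a ligand of the lung mesenchyme, had a gap of 36.6 points but a median below 75 in both organs. Plin2, the lipid droplet coat protein, ranked at 94.4, 92.1 and 86.9 in lung and 59.3, 80.1 and 75.1 in skin, a gap of 17.0. Gdf10 was the 1 member with a negative gap, -4.68 points.

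The matrix lists pooled here gave calls in skin alone, although most of their genes were not called. Matrix genes on other lists, Npnt, Col13a1, Spon1 and Mamdc2 among them, were called in lung, so the direction depends on how genes were listed. The 7 matrix lists (fibrillar collagens, type VI and fibril-associated collagens, elastic fibre, small leucine-rich proteoglycans, matricellular proteins, collagen processing, and proteases with their inhibitors) held 79 shared genes, 67 of them well-expressed. Of the 79, 20 were called higher in skin, 50 did not overlap with skin higher, 12 did not overlap with lung higher and 17 overlapped. Of all well-expressed genes 10.6% were called higher in skin, and 16.8% of all shared genes did not overlap that way. The median gap over the 79 genes was -5.38 points in fibroblasts and -1.72 between macrophages. The 20 called genes had a median gap of -56.4 points, which the call rule itself sets in part. Their median gap between macrophages was -8.27 points, and 4 of the 20 had a macrophage gap of at least 25 points in the same direction.

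The fibrillar collagens themselves were near the top of both organs, so their ranks hide a large difference in level. Col1a1, the alpha 1 chain of type I collagen (chromosome 11, 94936224 to 94953042), was at 423, 269 and 283 rpm in lung and 16120, 27064 and 30215 rpm in skin. Its skin values lay far above its lung values, with a ratio of medians of 95.7, and yet its gap was -5.38 points, and it was not called. The ratio of medians was 18.7 for Col3a1, 31.4 for the proteoglycan Dcn and 82.9 for the proteoglycan Lum. It was 3.61 for Sparc, a collagen-binding matricellular protein that was abundant in both organs. The fibrillar collagen list, 7 genes in the lung table and 9 in the skin table, took 0.203% to 0.294% of estimated reads in lung and 4.28% to 7.42% in skin. Its median gap was -3.17 points in fibroblasts and -26.3 between macrophages.

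Lum ranked at 59.3, 84.4 and 83.3 in lung, and its gap of -16.6 points became -28.6 without lung replicate 2 and -28.1 without lung replicate 3, which would make it a call. Within the collagens, those called were Col5a1 and Col5a2, which regulate fibril diameter, and Col12a1, Col14a1 and Col16a1, which decorate fibril surfaces. Col12a1 had 0, 29.0 and 8.45 rpm in lung and 258, 344 and 277 rpm in skin, a gap of -71.4 points. The gaps of Col5a1 and Col5a2 were -66.4 and -60.3 points. All 6 shared genes of the type VI and fibril-associated list had non-overlapping percentiles with skin higher, a median gap of -26.0 points. Between macrophages the median gap of that list was -20.9 points.

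**Figure D2:**
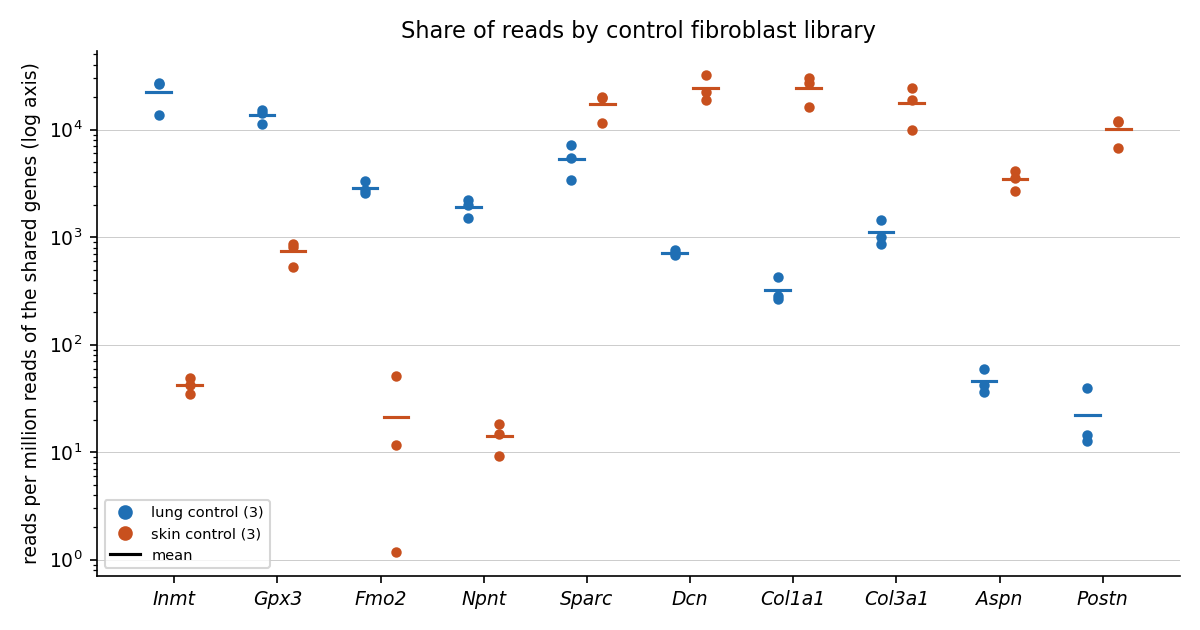
Level in rpm (log axis) for 10 genes in each control fibroblast library (points), with the group mean as a bar, lung in blue and skin in orange. Inmt, Gpx3, Fmo2 and Npnt are higher in every lung library, and Dcn, Col1a1, Col3a1, Aspn and Postn are higher in every skin library, while Sparc is high in both organs.

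Matricellular proteins, which modulate how cells read the matrix, gave the most skin calls of any matrix list, 7 of 15 shared genes. Postn encodes periostin, a matricellular protein that promotes collagen crosslinking (chromosome 3, 54361109 to 54391037). Its level was 39.6, 14.5 and 12.7 rpm in lung, on 6, 2 and 3 reads, and 6704, 11751 and 11911 rpm in skin. All skin values stood far above all lung values, and the gap was -63.7 points. Because the lung counts are that low, the ratio of medians, 809, is imprecise.

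Matn2, a filament-forming matrilin, had 0 reads in each lung library and 107, 352 and 166 rpm in skin. The 3-read level of the lung libraries, 12.7 to 21.8 rpm, was well below those skin values. Tnc, tenascin C, ranked at 64.4, 66.7 and 73.8 in lung and 98.9, 98.7 and 98.9 in skin, a gap of -32.2 points. Tnxb, tenascin X, Thbs3, a thrombospondin, Vcan, the large proteoglycan versican, and Smoc2, a calcium-binding modular protein, were among the other skin calls in these lists. No gene of the matricellular list was called higher in lung.

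Elastic fibre genes divided, with a list median gap of 0.18 points over 15 shared genes, and 14.5 between macrophages. Fbln5, which organises elastic fibres, had reads in 1 of the 3 lung libraries (0, 36.3 and 0 rpm) and 338, 582 and 490 rpm in skin, a gap of -89.5 points. Fbln2, a related fibulin, was at 6.61, 21.8 and 8.45 rpm in lung and 390, 599 and 532 rpm in skin. These were the skin calls of the list, and percentiles did not overlap with lung higher for 5 of its genes and with skin higher for 6. The list as a whole took 0.735% to 1.11% of reads in lung and 0.657% to 0.906% in skin, so its totals overlapped between organs.

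Aspn, a small leucine-rich proteoglycan that binds collagen, was at 59.5, 36.3 and 42.2 rpm in lung and 2674, 3546 and 4144 rpm in skin, a ratio of medians of 84.0. Fmod, fibromodulin, which controls fibril assembly, was the other skin call of its list, and 7 of the 9 shared proteoglycan genes did not overlap with skin higher. Ctsk, the collagen-degrading protease cathepsin K, was at 33.0, 0 and 16.9 rpm in lung and 1958, 1802 and 1545 rpm in skin, a gap of -60.8 points. Adamts5, which cleaves versican and aggrecan, and the crosslinking enzymes Loxl2 and Plod1 were also called. Plod1 (gap -29.2) went to -24 without lung replicate 2 and -24.7 without skin replicate 4, and so lost its call. Basement membrane genes gave 1 call each way among 14 shared genes, Npnt in lung and Hspg2, the heparan sulfate proteoglycan perlecan, in skin (gap -38.7).

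**Figure D3:**
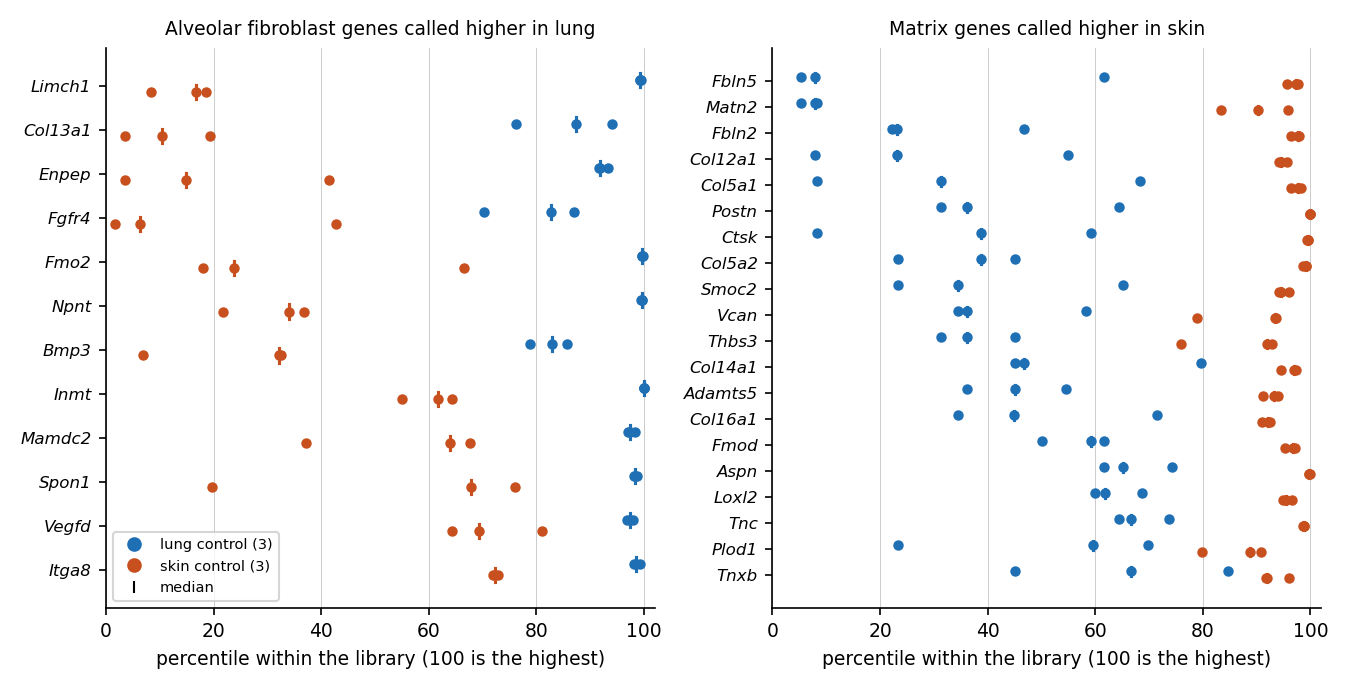
Percentile within the library (x axis) of the 12 alveolar fibroblast genes called higher in lung (left) and the 20 matrix genes called higher in skin (right), 1 point per control library and a bar at the median. Points of the organs do not overlap for any gene shown, by the call rule.

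Of the transcription factors that mark position most stood in 1 table, and among the 6 in both, 1 was called in lung and 1 in skin. Of 10 lung positional factors, 4 were in both tables and 5 in the lung table alone, and of 18 skin factors, 2 were in both and 9 in the skin table alone. Tbx2, a T-box factor of the lung mesenchyme, was at 92.5, 50.8 and 114 rpm in lung and 13.2, 0.0518 and 0 rpm in skin, a gap of 80.1 points. Prrx1, a homeobox factor of limb and skin mesenchyme, was at 26.4, 14.5 and 33.8 rpm in lung and 376, 269 and 284 rpm in skin, a gap of -41.6 points. Both factors separated the organs without overlap, as did Tbx3, with lung higher by 39.7 points but below the level for a call. Meox2 (17.5 points), Mecom (-1.36) and Trps1 (-13.6) overlapped between organs.

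Hoxb2 was the 1 Hox gene in both tables, with percentiles of 59.3, 46.8 and 14.7 in lung and 3.44, 7.39 and 12.9 in skin, and it was not called because it was not well-expressed. Among genes in the lung table alone, Tcf21, a basic helix-loop-helix factor of lung and other visceral mesenchyme, had a median percentile of 95.0 within that table, Hoxa5 of 87.7, Foxf2 of 79.0 and Hoxb5 of 77.8. Among genes in the skin table alone, Msx1 had a median percentile of 95.9, Twist2, a factor of dermal fibroblasts, of 90.5 and Tbx15 of 84.8. Standing in 1 table is not a level, since no source used here states the filter that made each table. Of the dermal fibroblast list, 9 of 20 genes stood in the skin table alone, and of the 10 shared genes 1 was called, Ntn1, the guidance cue netrin 1, higher in skin (gap -33.4). The dermal list took more reads in lung (0.484% to 0.690%, 10 genes) than in skin (0.161% to 0.212%, 19 genes), mostly from Mgp, an inhibitor of calcification, at 4375, 4077 and 6194 rpm in lung and 302, 216 and 166 rpm in skin. Among its shared genes 2 did not overlap in each direction, and the median gap was -0.43 points.

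Signalling genes separated the organs in both directions. Of 14 shared FGF and Hedgehog genes, 5 were called higher in lung and 1 in skin, with a median gap of 24.2 points (2.98 between macrophages). Fgf10, the ligand that drives lung branching, ranked at 83.8, 73.5 and 76.7 in lung and 67.7, 33.4 and 36.5 in skin, and its gap of 40.2 points fell to 24.6 without skin replicate 4. Its receptor Fgfr2 went the other way, with percentiles of 59.3, 16.7 and 45 in lung and 74.0, 85.5 and 85.0 in skin. Ligand and receptor were therefore called in opposite directions.

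Ptch1, the receptor and target of Hedgehog signalling, ranked at 80.1, 73.5 and 84.1 in lung and 19.6, 41.1 and 17.1 in skin, a gap of 60.5 points. Spry2, a feedback inhibitor of FGF signalling, had a gap of 33.1 points, with 49.8 points between macrophages. Fgfr3 had a gap of 61.7 points on 6, 10 and 16 lung reads after rounding, and it lost its call without lung replicate 2 or 3, where its lung median fell below 75. In the depleted mice its gap was 13.1 points.

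Of 18 shared BMP and TGF-beta genes, 5 were called higher in skin and 1, Bmp3, in lung, with a median gap of -3.29 points (7.77 between macrophages). The ligand Tgfb2 was at 6.61, 21.8 and 38.0 rpm in lung and 284, 184 and 204 rpm in skin, and the ligand Tgfb3 at 26.4, 65.3 and 25.3 against 94.7, 245 and 203 rpm. Neither ligand overlapped between organs. The receptor Bmpr2 had a gap of -63.4 points, with -50.3 between macrophages, and the BMP targets Id1 and Id2, inhibitors of helix-loop-helix factors, had gaps of -29.9 and -26.7. Id1 differed the other way between macrophages, by 48.7 points.

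Of 13 shared Wnt genes, Wnt4 was the 1 call, higher in lung with a gap of 40.9 points, and the call was lost without lung replicate 2, with a gap of 60.7 points between macrophages. In the IGF axis, Igfbp2 and Igfbp5, binding proteins that hold insulin-like growth factors, were called higher in skin among 9 shared genes. Igfbp2 had 0, 0 and 2 reads in lung (0, 0 and 8.45 rpm) and 346, 470 and 313 rpm in skin. Igfbp5 was at 46.3, 58.1 and 50.7 rpm in lung and 679, 784 and 833 rpm in skin. The 2 binding proteins thus separated the organs in the same direction, while the list's median gap was -0.18 points (-12.6 between macrophages).

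Retinoid and detoxification genes took a larger share of the lung libraries, 3.50% to 5.29% of reads over 16 listed genes against 0.357% to 0.469% in skin over 18. Inmt (13604 to 27311 rpm) and Gpx3 (11268 to 15184 rpm) made most of the lung share. The list's median gap was 4.66 points, and 28.6 between macrophages, with 9 genes not overlapping with lung higher and 2 with skin higher. Of 14 shared members, 4 were called higher in lung, Fmo2, Inmt and Rbp4 among them, and 2 in skin (Adh7 and Cyp2f2); Inmt and Fmo2 are also on the alveolar list. Rbp4, the secreted retinol carrier, was at 139, 94.4 and 59.1 rpm in lung against 8.10, 10.9 and 16.6 rpm in skin, higher in every lung library. Adh7, an alcohol dehydrogenase active on retinol, was at 6.61, 0 and 4.22 rpm in lung and 518, 375 and 490 rpm in skin, so the dehydrogenase and the carrier ranked in opposite directions. Gpx3, a secreted glutathione peroxidase, was at 14207, 15184 and 11268 rpm in lung and at 530, 865 and 813 rpm in skin, a ratio of medians of 17.5 that its gap of 1.24 points does not show.

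Of 13 shared complement genes 2 were called each way, while 6 did not overlap with lung higher and 3 with skin higher. The list took 0.546% to 0.732% of reads in lung (14 genes) and 0.300% to 0.393% in skin (13 genes), most of both from Serping1, the C1 inhibitor (2863 to 5614 against 1756 to 2426 rpm). C7, a component of the membrane attack complex, was at 345, 450 and 71.8 rpm in lung and 0, 17.1 and 25.4 rpm in skin, without overlap. Cfb, the protease of the alternative pathway, had a gap of -45.6 points and Cd55, a membrane inhibitor, one of -53.8. Cd55 lost its call without skin replicate 4 or 5, and it had a gap of 63.1 points the other way between macrophages. Of 15 shared chemokines and cytokines, 4 were called higher in skin (the eosinophil attractant Ccl11, Ccl19, the monocyte attractant Ccl7 and Csf1, the growth factor of macrophages). Csf1 was at 19.8, 14.5 and 40.2 rpm in lung and 242, 171 and 161 rpm in skin. Tnfsf13b, the B cell survival factor BAFF, was called in lung, at 152, 174 and 110 rpm against 0 reads in each skin library.

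In the lipid list, Apod, a lipid-carrying apolipoprotein, and Scd1, the stearoyl-CoA desaturase, were called higher in skin among 15 shared genes. The gap of Apod, -26.1 points, fell to -21.4 and -21.7 without lung replicates 1 and 2, so its call rests on those libraries. None of the 21 shared immediate-early genes, which respond to cell isolation among other stimuli, was called. Of them 3 did not overlap with skin higher, near the 16.8% of all shared genes. Among 11 heat shock genes, 9 of them well-expressed, Hspa1a, an inducible chaperone, was called higher in skin (gap -52.7). That is near the 10.6% called in skin among all well-expressed genes. The reads of Hspa1a cannot be told apart with certainty from those of its near-identical neighbour Hspa1b.

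The largest rank gaps included genes of other cell types and genes that also separated the macrophages of the organs. On the lung side the 12 leading genes were Chil3, Rorb, Pecam1, Scgb1a1, Tnfsf13b, Gprc5c, Fblim1, Art4, Dbf4, Gsta3, Ncald and Acad12, with gaps of 82.9 to 90.6 points. On the skin side they were Gpnmb, Ly6d, Fbln5, Ebf1, Igfbp2, Perp, Ramp1, Angptl7, Il1r2, Ccnd1, Fgl2 and Adh7, with gaps of -82.7 to -90.0 points. Over all calls the median macrophage gap was 20.5 points for the lung set and -15.3 for the skin set, against -0.17 over all shared genes. Between macrophages the call rule gave 242 genes higher in lung (2.39%) and 165 higher in skin (1.63%). A macrophage gap of at least 25 points in the same direction was found for 186 of the 422 lung calls and 118 of the 350 skin calls. The gap in fibroblasts exceeded that in macrophages by at least 25 points for 187 lung calls (44.3%) and 191 skin calls (54.6%).

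Rorb, a nuclear receptor, was at 599, 761 and 1090 rpm in lung fibroblasts and 21.7, 0 and 1.24 rpm in skin fibroblasts, and its macrophage gap was 96.7 points. Acad12, an acyl-CoA dehydrogenase, had a macrophage gap of 86.0 points beside its fibroblast gap of 82.9. For these genes the organ difference was thus as large in macrophages as in fibroblasts, and the part of table processing in it was not tested. By contrast, Art4, an ADP-ribosyltransferase family member, was at 225, 232 and 148 rpm in lung and 0.0743, 3.21 and 0 rpm in skin, with a macrophage gap of -0.58 points. Fblim1, a filamin-binding adhesion protein, had a fibroblast gap of 85.5 points and a macrophage gap of -13.3. Gsta3, a glutathione transferase, was at 443, 487 and 444 rpm against 27.4, 3.03 and 4.16 rpm, with 43.5 points between macrophages.

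Among the skin leaders, Ebf1, a helix-loop-helix factor known from B cells and adipocyte precursors, had 0, 0 and 6 reads in lung and 510, 491 and 677 rpm in skin, with a macrophage gap of 9.31 points in the opposite direction. Angptl7, a secreted angiopoietin-like protein, was at 6.61, 0 and 4.22 rpm in lung and 1337, 2283 and 1079 rpm in skin, with a macrophage gap of -55.95 points. Gpnmb, a membrane glycoprotein of macrophages and melanocytes, had 0 reads in every lung library and 685, 604 and 558 rpm in skin. Its gap was -90.0 points in fibroblasts and -56.0 in macrophages. Ramp1, the co-receptor for the neuropeptide CGRP, also had 0 reads in every lung library, against 268, 218 and 176 rpm in skin. Ccnd1, the G1 cyclin, had reads in 1 of 3 lung libraries (14.5 rpm) and 181, 130 and 186 rpm in skin.

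**Figure D4:**
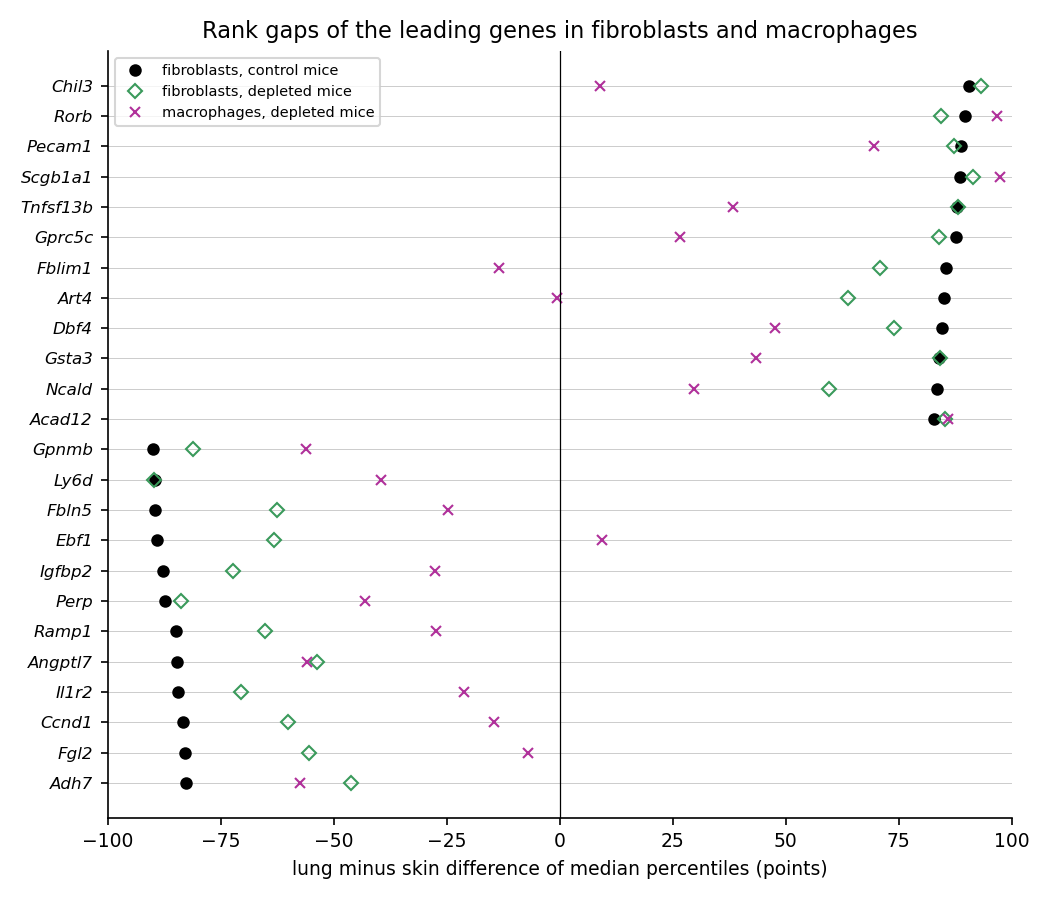
Lung minus skin difference of median percentiles (x axis, points) of the 12 leading genes in each direction, for fibroblasts of control mice (filled circles), fibroblasts of depleted mice (diamonds) and macrophages of depleted mice (crosses). The fibroblast gaps of both groups of mice lie on the same side for all 24 genes, and the crosses range from near the circles, as for Rorb (96.7), to the other side of 0, as for Fblim1 (-13.3).

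Genes of cell types removed by the gates were measured beside these results. Scgb1a1, the secretory protein of airway club cells, was at 251, 334 and 199 rpm in lung fibroblasts, while the lung epithelium list (14 genes in the lung table) made 0.0584% to 0.232% of their reads and 0.980% to 2.25% of those of lung macrophages. Chil3, a chitinase-like protein of alveolar macrophages that has close paralogs, was at 257, 326 and 106 rpm, and Lyz2, lysozyme, at 314, 384 and 156 rpm. In the same libraries 3 of 13 leukocyte genes, C1qa, Cd79a and Itgam, were at 0 throughout. Pecam1, the CD31 of the negative gate, was at 318, 179 and 239 rpm in lung fibroblasts, and the 9-gene endothelium list made 0.0277% to 0.0419% of reads. On the skin side, Perp and Krt10, a desmosome-associated protein and a keratin of differentiating epidermis, were called, and the keratinocyte list (15 genes in the skin table) made 0.342% to 0.480% of reads. Ly6d, a keratinocyte and B cell surface antigen, was at 491, 645 and 534 rpm. The part of such cells or of free RNA in these calls was not tested.

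Other lists stayed small. Mesothelium genes made 0.0608% to 0.0843% of reads in lung fibroblasts, nearly all from Upk1b (608 to 830 rpm), while Krt8 and Krt19 were at 0 in each of those libraries. Mural and smooth muscle genes made 0.0125% to 0.0329% across both organs, and erythrocyte genes 0% to 0.174% in lung and up to 0.0103% in skin. No gene of the mural, mesothelium, skeletal muscle, Schwann cell and melanocyte, mast cell or erythrocyte lists was called. The haemoglobin genes Hba-a2 and Hbb-bs, with gaps of 79.1 and 75.6 points, were at 0 in lung replicate 3 and became lung calls without it (82.6 and 80.5 points); close copies make their reads uncertain. Calcrl, a receptor chain of endothelium and other cells, was called in lung (gap 29.3) and lost the call without lung replicate 1 or 2, at 19.0 and 21.0 points.

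Fibroblasts of the depleted mice, which the control comparison did not use, repeated the direction of nearly all calls. Of the 422 lung calls, 421 had a positive gap in the depleted mice, the exception being Ttc9c (-12.5 points), and of the 350 skin calls 349 had a negative one, the exception being Fam69a (5.61 points). The median gap of the lung calls was 44.5 points in control and 41.9 in depleted mice, and that of the skin calls -42.6 and -38.5. By the full rule 395 genes (3.90%) were called higher in lung and 345 (3.41%) in skin in the depleted mice. Both groups shared 290 lung calls (68.7% of the control and 73.4% of the depleted calls) and 222 skin calls (63.4% and 64.3%). These libraries stand in the same tables as the controls, so they repeat the cells and not the table processing.

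**Figure D5:**
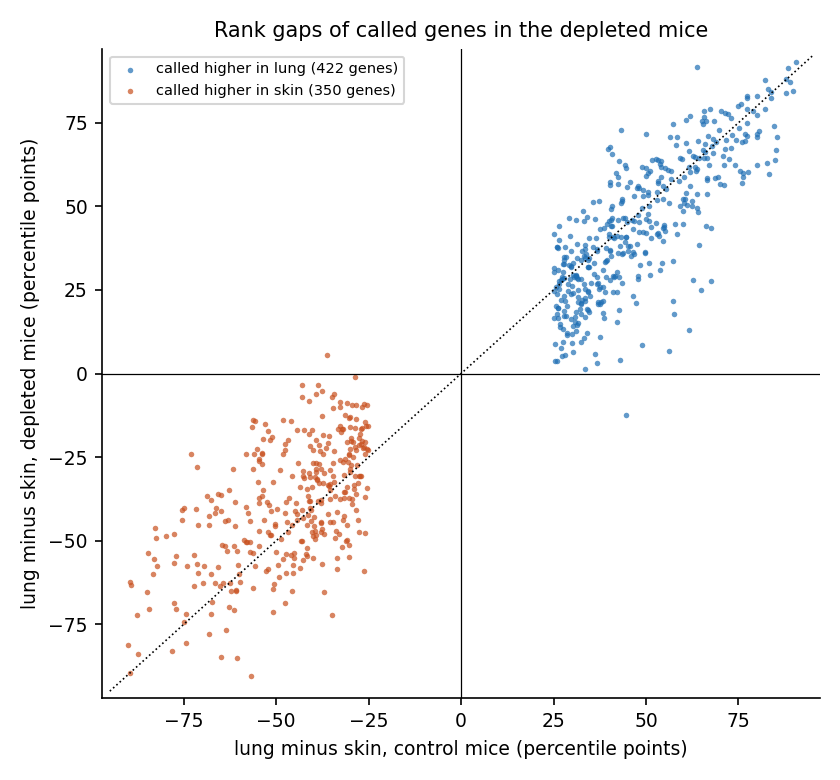
Lung minus skin rank gap in control mice (x axis) and in depleted mice (y axis), in percentile points, for the 422 genes called higher in lung (blue) and the 350 called higher in skin (orange) in control mice; the dotted line marks equal gaps. All but 1 gene of each set keep their sign in the depleted mice.

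The alveolar genes gave 11 lung calls in the depleted mice, 9 of them shared with the controls, and a median gap of 34 points against 35.1. Bmp3, Fgfr4 and Inmt were called in the controls alone, and Wnt2 and Macf1 in the depleted mice alone; differences between the groups of mice were not tested. The matrix genes gave 21 skin calls, 18 of them shared, and 2 lung calls, Adamts15 and Plod2. The gap of Postn was -51.6 points, that of Fbln5 -62.5 and that of Tbx2 77.3. C7 had a larger gap in the depleted mice, 91.8 points against 63.9.

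Whether the same genes were fibroblast genes within their own organ was tested inside each table, where fibroblasts and macrophages share a normalisation. In the depleted mice, 1252 of 11867 genes were higher in lung fibroblasts (10.6%) and 1479 in lung macrophages (12.5%), and 1529 of 12079 genes were higher in skin fibroblasts (12.7%) and 1372 in skin macrophages (11.4%), by limma on log2(signal + pseudocount) at a Benjamini-Hochberg adjusted p below 0.05. Together these are 2731 genes in lung (23.0%) and 2901 in skin (24.0%). Macrophages of depleted mice served because, in the libraries labelled skin control macrophages, the pan-fibroblast list made 9.43% of reads in replicate 1, 11.8% in replicate 5 and 0.213% in replicate 3, and the title of replicate 5 goes against its cell type field. The organ differences themselves were not part of this test.

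The shares of calls that were fibroblast genes within each organ are given beside those of all shared genes. Of the 422 lung calls, 161 (38.2%) were higher in fibroblasts in the lung table, as were 47 of the 407 tested in the skin table (11.5%). Of the 350 skin calls, 58 (16.6%) were higher in fibroblasts in the lung table and 144 (41.1%) in the skin table. Among all shared genes the shares were 11.2% in lung and 10.7% in skin. Genes higher in macrophages made 8.06% of the lung calls in the lung table and 7.71% of the skin calls in the skin table, against 13.5% and 13% of all shared genes. No test was made of the differences between these shares. Every call had to be well-expressed in fibroblasts of the organ where it ranked higher, whereas most shared genes were not well-expressed. The call rule itself thus favours genes that are high in fibroblasts of that organ. The comparison with all shared genes therefore cannot tell how far the shares go beyond the rule, and shares among well-expressed genes alone were not computed. The same limit holds for the called genes of the lists below.

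All 12 alveolar genes called higher in lung were also higher in lung fibroblasts than in lung macrophages, and 6 of the 11 tested in skin were higher in skin fibroblasts. Inmt was higher in fibroblasts by 6.60 ± 0.20 (SE) on the log2 scale in lung (limma, adjusted p = 3.2e-13) and by 6.15 ± 0.65 in skin (adjusted p = 9.0e-05). Npnt was higher by 5.42 ± 0.26 in lung (adjusted p = 6.9e-11), while in skin its difference was 1.22 ± 1.11 (adjusted p = 0.47). Limch1 showed a like pattern, 6.16 ± 0.38 in lung and 2.29 ± 0.90 in skin (adjusted p = 0.096). Inmt was thus a fibroblast gene in both organs, and for Npnt and Limch1 the skin test did not pass, which does not show that they are equal there. Of the whole list, Plin2 was lower in fibroblasts than in macrophages in both organs, by -2.22 in lung and -2.55 in skin.

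Of the 20 matrix genes called higher in skin, 19 were higher in skin fibroblasts than in skin macrophages, Col16a1 being the exception, and 9 were higher in lung fibroblasts than in lung macrophages. Postn was higher in fibroblasts by 6.07 ± 0.43 (SE) in skin (limma, adjusted p = 5.4e-06) and by 2.01 ± 0.68 in lung (adjusted p = 0.040). Tnc was higher by 7.60 ± 0.66 in skin and by 2.29 ± 0.64 in lung. Both genes were therefore fibroblast genes in either organ. Ctsk was higher in fibroblasts in skin (1.98 ± 0.31, adjusted p = 0.0010) and lower in lung (-2.54 ± 0.59, adjusted p = 0.0043). Over the 79 matrix genes, 54 were higher in lung fibroblasts and 69 of 78 in skin fibroblasts, with 4 and 1 higher in macrophages.

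Among regulators, Tbx2 was higher in lung fibroblasts by 3.74 ± 0.59 (limma, adjusted p = 0.00013). Prrx1 was higher in fibroblasts in both organs, by 2.73 ± 0.65 in lung and 5.43 ± 0.85 in skin. Ebf1 was higher in skin fibroblasts by 6.71 ± 0.62 (adjusted p = 3.4e-05), and in lung its difference was 0.54 ± 0.78 (adjusted p = 0.67). These regulators therefore passed in the organ where they ranked higher. Tgfb2 passed in skin as well, by 5.38 ± 0.76 (adjusted p = 0.00056). Fgf10 was higher in lung fibroblasts by 4.48 ± 0.56.

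Some leading genes did not mark fibroblasts within their organ. Chil3 was lower in lung fibroblasts than in lung macrophages by -4.56 ± 0.24 on the log2 scale (limma, adjusted p = 2.5e-10), Lyz2 by -6.48 ± 0.23 and Scgb1a1 by -2.06 ± 0.51. Pecam1 (0.47 ± 0.29, adjusted p = 0.28) and Rorb (-0.18 ± 0.23, adjusted p = 0.64) did not pass in lung. In skin, Gpnmb (0.11 ± 0.39, adjusted p = 0.87), Perp (1.63 ± 0.76, adjusted p = 0.15) and Ly6d (1.34 ± 0.82, adjusted p = 0.28) did not pass either. By contrast Art4 (4.91 ± 0.53), Gsta3 (4.27 ± 0.41), Ncald (3.71 ± 0.55) and Fblim1 (3.50 ± 0.65) were higher in lung fibroblasts, and Angptl7 (5.73 ± 0.72) and Igfbp2 (4.57 ± 0.57) in skin fibroblasts.

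Genes found in 1 table could not be ranked against the other organ and are listed apart. The lung table alone held 1744 genes, 924 of them predicted or clone symbols, and they took 4.08% to 4.64% of the reads of the lung control fibroblast libraries. The skin table alone held 2538 genes, 365 of them predicted or clone symbols, with 4.52% to 4.82% of reads. A median percentile of at least 90 within its own table was reached by 51 lung genes and 45 skin genes. The highest lung genes were Smco1, Ctcfl, Sftpc, Upk1b and Ces1d, and their percentiles in lung macrophages were 99.2, 98.6, 99.9, 43.7 and 32.1. Sftpc, surfactant protein C, belongs to alveolar epithelium and Upk1b is a uroplakin, whereas Ces1d, a carboxylesterase, is on the alveolar fibroblast list.

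The highest skin genes were Krt14, Krt15, Cilp, Sfrp2 and Krt5. Krt14, Krt15 and Krt5 are keratins of basal epidermis. Cilp, a cartilage intermediate layer protein, had a median percentile of 99.3 in skin fibroblasts and 37.2 in skin macrophages, and Sfrp2, a secreted Wnt modulator, 98.8 and 42.3. The matricellular genes Thbs2 (97.4) and Thbs4 (96.1), the growth factor Igf2 (97.2) and the preadipocyte factor Dlk1 (91.2) also stood high in the skin table alone.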

How the data were processed

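The data are bulk RNA-seq of sorted lung and skin cells of control and depleted mice. The authors deposited 1 table of normalised signal for each organ; the submitters' processing notes name the base caller CASAVA 1.8, cutadapt 1.7.1 for trimming, the estimator RSEM 1.7.1, the package limma 3.46 and build mm10. No source used here states the scale of the deposited signal. It was read from the values as an estimated read number plus 0.5, times 1 constant per library. Estimated reads were recovered on that reading, with the smallest value of each library taken as 0 reads. Within 0.01 of whole numbers were 71.8% to 79.0% of the estimates in the lung control fibroblast libraries. In the skin control fibroblast libraries the share was only 36.4% to 38.3%, so the reading is less well backed there. The estimated reads are not counts, and no count model was used. The tables were normalised separately, which affects any level set across them, so shared genes were ranked within each library (ties averaged) and called by the rule given above, with no test.

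Within each table, fibroblasts and macrophages of depleted mice were compared with limma 3.58.1 (two-sided, variance trend, Benjamini-Hochberg adjustment) in R 4.3.3 on log2(signal + pseudocount), with pseudocounts of 1.07 in lung and 1.03 in skin, 0.0001% of the mean library total; fold changes on that scale understate low genes. Genes below that level in too many libraries to fill the smaller group were left out, which left 12079 of 12661 skin genes. The script was tested on simulated data. As nothing says that replicates are separate animals, p-values reflect a spread that could be technical. Genes named were, by rule, the 12 calls with the largest gaps in each direction (predicted genes passed over), the 5 highest-ranked genes of each organ, up to 4 members of each list with the largest gaps, the positional, Hox and gate genes and the 5 highest genes found in 1 table; further members of the lists were named after their values were seen, as were Pkn2, Tm2d3, Zhx1, Klf4, Ttc9c and Fam69a. The lists and members were chosen with earlier results of these data known. The macrophage gap was added after seeing the data. Alternatives were other limits for a call, other rankings, other pseudocounts, filters and scalings, a replicate block and leaving out each library. Deviations of same-numbered libraries correlated little (-0.0215 to 0.150), which cannot settle pairing, and numbers were not used as pairs in the main fit. Promoters came from RefSeq (GRCm38.p6), matched by symbol for 7903 of 10123 shared genes. Some items withheld for evaluation are not reported here.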

Additional observations from a re-analysis of the deposited data

Results flagged for a closer look

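Il1r2, the decoy receptor for interleukin 1 and a skin call, differed between fibroblasts and macrophages in opposite directions in the organs: every lung fibroblast library of the depleted mice was lower than the lung macrophages (log2 difference -2.54) and every skin fibroblast library was higher than the skin macrophages (2.42). The difference between these effects was not tested.

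Among the 4 skin macrophage libraries of depleted mice, Epcam was far lower in replicate 5 (signal 28.8) than in the others (26.7 rpm against 79.7 to 99.7). Rorb stood apart in replicate 1 (signal 0.0809), but it had 0 reads in all 4 libraries, so that value is what 0 reads give at the scaling of that library. Chance gives such a sample in about 1 of 20 groups of values.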

How the results depend on the processing

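The counts of calls depended mainly on the limits. In control mice, lung calls numbered 258 at a gap of at least 40, 744 and 136 with the higher median at 50 and 90, and 187 when the gap had to exceed that of macrophages by 25 points. Skin calls numbered 529 and 200 at gaps of 15 and 40, 685 and 129 at medians of 50 and 90, and 191 beyond macrophages. In depleted mice, lung calls numbered 242 at a gap of 40 and 743 and 140 at medians of 50 and 90, and skin calls 529 and 200 at gaps of 15 and 40 and 667 and 103 at medians of 50 and 90. Ranking among all genes of each table, tying low levels or calling by a 4-fold ratio of shares kept each control count within 1.5 times its value. By ratio, 315 of the 422 lung and 254 of the 350 skin calls were shared.

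Leaving out 1 library gave 410 to 470 lung and 327 to 415 skin calls in control mice, and 395 to 468 and 334 to 413 in depleted mice. The limma counts ran from 1963 to 2388 in lung (857 to 1115 higher in fibroblasts, 1106 to 1290 in macrophages) and from 2279 to 3177 in skin (1172 to 1804 and 1028 to 1459). With the replicate block, limma called 3029 genes in lung and 3510 in skin, more than the 2731 and 2901 without it. Correlations of same-numbered deviations were -0.0215 to 0.150. The highest was that of skin replicate 5, against at most 0.0398 with other numbers. These few values cannot settle whether the numbers pair the samples. No paired analysis was possible for the rank calls because they come from no test.

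Of the rank gaps of named genes under alternatives, 975 stayed within the spread between replicates (the larger SD of the 2 organs) and 41 moved further. Leaving out 1 of 3 libraries cannot move a median by more than that SD. Those settings therefore had to count as within it, and all 41 came from the other rankings. The 975 are thus no measure of how stable the gaps are. No gap of a called gene changed sign. With a library left out none could, because called genes do not overlap by rule. Sign changes of genes not called were not counted. Among leading genes, log2 differences from macrophages changed sign for Rorb in lung (0.262 with quantile normalisation), and in skin for Acad12 (-0.0436, same setting) and Ccnd1 (0.0668, same setting, and 0.732 with the replicate block). With 1 library left out they ran across 0, from -0.0713 to 1.12 for Ebf1 and from -0.385 to 0.0104 for Rorb in lung, and in skin from -0.115 to 0.768 for Acad12, -1.72 to 0.131 for Dbf4, -0.279 to 0.453 for Gpnmb, -0.259 to 0.293 for Ccnd1, -1.37 to 0.207 for Fblim1, -0.784 to 0.0390 for Fgl2 and -0.611 to 0.235 for Ramp1. The cause was not tested. Lung depth, with 3 reads at 12.7 to 21.8 rpm, limits every low lung level.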
